A study of Mus musculus with 2 samples.

Results

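The genes that make cholesterol and fatty acids, together with the factors that control them, were compared between osteogenic marrow cultures from Cpdm and wildtype mice. The group was chosen by function, with earlier results of these data known, and holds 36 named genes. Of these, 35 had at least 1 probe set that names no other gene in the platform annotation, out of 18193 genes with such a probe set on the array. The exception was Acat2, an acetyl-CoA acetyltransferase gene, whose expression is not analysed here. The 35 genes had 83 probe sets, of which 67 exceeded the floor of the analysis on both arrays, 8 on 1 array and 8 on neither. Every one of the 35 genes was above the floor in both arrays by its representative probe set, the one with the highest mean log2 signal.

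The Cpdm group is 1 culture of unsorted marrow cells from mice with the chronic proliferative dermatitis mutation, a spontaneous mutation that removes functional SHARPIN, a subunit of the enzyme complex that builds linear ubiquitin chains. The wildtype group is 1 culture of unsorted marrow cells from wildtype mice. Each culture received ascorbic acid at 50 µg/ml and β-glycerophosphate at 10 mM over 10 days, supplements that favour bone-forming cells, and 5 µg of total RNA from each was labelled for an Affymetrix array. The sources used here do not give the age, the number of mice or the genetic background. A single array per genotype gives no replicate error and no p-value, so every difference describes these 2 arrays.

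Cholesterol is built from acetyl-CoA through mevalonate, isoprenoid units, squalene and lanosterol, while fatty acids are built from the same acetyl-CoA by carboxylation, chain synthesis, elongation and desaturation. Both pathways are switched on by sterol regulatory element binding proteins, membrane-bound transcription factors encoded by Srebf1 and Srebf2. When sterols are scarce, the escort protein SCAP carries them from the endoplasmic reticulum to the Golgi, where proteases release the active part; when sterols are plentiful, INSIG proteins hold SCAP back. The SREBP2 protein acts mainly on sterol genes and SREBP1c mainly on fatty acid genes.

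Values are linear MAS5 signals, in arbitrary units, scaled so that both arrays have the same trimmed mean. Signals below the 40th percentile of an array, 18.5 for Cpdm and 18.7 for wildtype, were set to that floor. A fold against a culture at the floor is a lower bound, written as "at least". A signal compares the same probe set between cultures, not 1 gene with another. The mean log2 ratio of Cpdm over wildtype was 0.01 ± 0.11 (SD, n = 18 probe sets) for hybridisation spike-ins. The brightest and the next brightest probe set of a gene were also compared, over 5250 genes. From their differences a single probe set had a robust SD of 0.32 log2 units, and the difference between a pair spreads more widely. Both yardsticks cover the arrays and leave out differences between mice and cultures.

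The array pair also differed in features that run alongside genotype. Sharpin read 162 in Cpdm and 197 in wildtype by 1 probe set and 107 in Cpdm and 120 in wildtype by the other, and since the mutation need not remove the transcript, this does not check the labels. Of 13 listed osteoblast markers 10 were measured, of which 7 were at least 2-fold lower in Cpdm (5.98% of all measured genes were) and none was higher, with a summed signal of 11489 in Cpdm and 22986 in wildtype, and Phex was at the floor in Cpdm. Of 15 macrophage and monocyte markers, 5 were at least 2-fold higher (5.84% of all measured genes were) and none was lower by as much, with a summed signal of 24380 in Cpdm and 18461 in wildtype. Among them Lyz2 was 1.32-fold lower in Cpdm, and the wildtype signal of Marco was under the floor. The female X-inactivation RNA Xist read 1113 in Cpdm and 247 in wildtype by its brightest probe set, and its other probe sets were at the floor in wildtype. The Y-linked genes Eif2s3y, Kdm5d and Uty exceeded the floor in both cultures by their brightest probe sets and were lower in Cpdm. Eif2s3y read 80.6 in Cpdm and 249 in wildtype. A dim Kdm5d probe set read 22.9 in Cpdm and was at the floor in wildtype. Control probe sets for 18S ribosomal RNA had log2 ratios between -3.75 and -2.37. In a bulk sample fewer cells of a type and less RNA per cell cannot be told apart, and the part of cell makeup, sex and RNA preparation in the lipid gene differences was not tested.

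Genes of the sterol branch were higher in the Cpdm culture along most of the pathway. Of 17 measured genes, 15 had a log2 ratio above 0 and 2 had one below 0, against 52.4% above 0 among all 14055 measured genes. At least 2-fold higher were 6 of the 17 (35.3%), against 5.84% of all measured genes, and none was at least 2-fold lower, against 5.98% of all. At a rule of 1.5-fold, 12 were higher (background 15.7%) and 1 was lower (background 13.5%). The median log2 ratio of the branch was 0.83, or 1.77-fold, and that of all measured genes was 0.03. Single genes ranged from -0.85 for Ebp to 2.28 for Idi1. These genes had 31 probe sets that exceeded the floor on both arrays. Of these 27 had a log2 ratio above 0, against 51.2% of 20969 such probe sets in all. At least 2-fold higher were 12 (background 5.07%), and 0 were at least 2-fold lower (background 5.66%). This count leaves out probe sets at the floor in 1 array. Those of Fdft1 were at least 2.07-fold and at least 2.20-fold lower, and those of Hmgcs1 and Lss at least 1.05-fold and at least 1.63-fold higher.

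**Figure D1:**
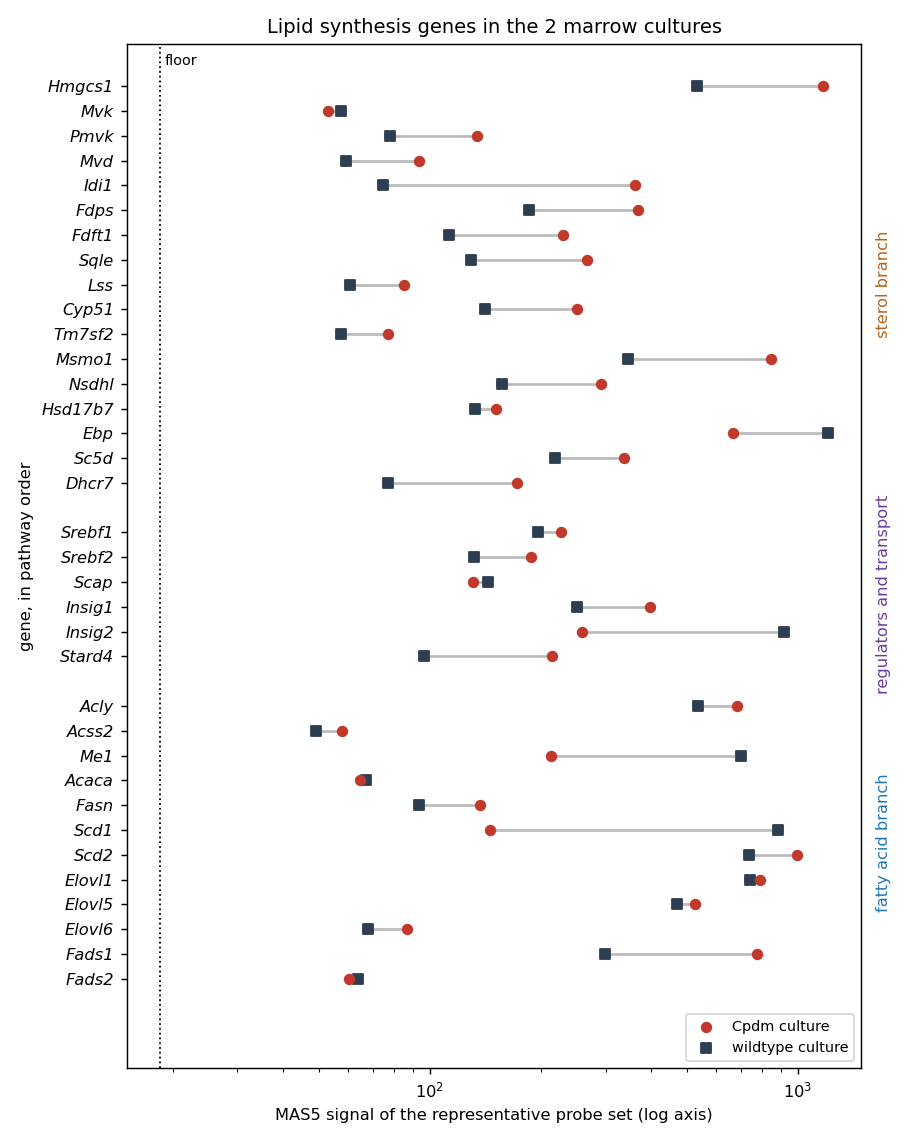
Signal of the representative probe set of each of the 35 genes in the Cpdm culture (red circles) and the wildtype culture (dark squares), on a log axis, with genes in pathway order and a dotted line at the floor. In the sterol branch the Cpdm point lies to the right of the wildtype point for 15 of 17 genes, with the widest gap at Idi1; in the fatty acid branch the widest gaps, at Scd1 and Me1, run the other way.

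The early steps, which turn acetyl-CoA into isoprenoid units, held the largest difference of the pathway. Idi1 encodes the isomerase that supplies dimethylallyl diphosphate, and it read 362 in Cpdm and 74.5 in wildtype, which is 4.85-fold higher. Its other probe set read 333 in Cpdm and 73.7 in wildtype, or 4.52-fold higher, so its 2 probe sets differed by less than the 0.32 log2 units given above. Idi1 ranked 60th of 14055 measured genes, counted from the highest ratio.

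Hmgcs1, the cytosolic synthase that makes HMG-CoA for the mevalonate pathway, read 1171 in Cpdm and 530 in wildtype, or 2.21-fold higher. Other Hmgcs1 probe sets gave 2.07-fold and 2.29-fold, while 1 more gave 1.12-fold with 281 in Cpdm and 250 in wildtype. Thus 3 of the 4 Hmgcs1 probe sets that exceeded the floor on both arrays passed 2-fold. Fdps, which joins isoprenoid units to farnesyl diphosphate, read 367 in Cpdm and 186 in wildtype, at 1.98-fold just under the 2-fold rule. Pmvk, the phosphomevalonate kinase, read 135 in Cpdm and 77.8 in wildtype. Mvd, the decarboxylase that closes this stretch, read 93.2 in Cpdm and 59.0 in wildtype, and 96.6 in Cpdm and 38.8 in wildtype by its other probe set. These genes all lay on the same side, with Mvd at 1.58-fold and 2.49-fold by its probe sets.

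Mvk, the mevalonate kinase, was the early gene whose probe sets parted. Its representative probe set, designed to match several transcripts, read 52.8 in Cpdm and 57.3 in wildtype. The other read 48.6 in Cpdm and 22.0 in wildtype, a fold of 2.21, with the wildtype signal near the floor. The direction of Mvk is therefore not settled by these arrays.

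From squalene onwards, 4 of 11 genes were at least 2-fold higher (background 5.84%). Msmo1, the oxidase that strips methyl groups from sterol carbon 4, read 843 in Cpdm and 345 in wildtype, or 2.44-fold higher. Dhcr7, the reductase of a final step of cholesterol synthesis, read 172 in Cpdm and 76.8 in wildtype, or 2.24-fold higher. Sqle, the squalene epoxidase, read 267 in Cpdm and 130 in wildtype, or 2.06-fold higher. These genes each rest on a single probe set that exceeded the floor.

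Fdft1, the squalene synthase, was 2.04-fold higher by its representative probe set, which read 230 in Cpdm and 113 in wildtype, and 2.55-fold higher by another. A pair of dim Fdft1 probe sets ran the other way, with 8.18 in Cpdm and 38.3 in wildtype for the first and 3.42 in Cpdm and 40.6 in wildtype for the second. Those Cpdm signals lie below the floor, so the folds are at least 2.07-fold and at least 2.20-fold lower. With all measured probe sets averaged, the log2 ratio of Fdft1 was 0.05.

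The remaining late genes were mostly higher by less than 2-fold. Nsdhl, a sterol dehydrogenase, read 292 in Cpdm and 157 in wildtype. Cyp51, the lanosterol demethylase, read 251 in Cpdm and 141 in wildtype, with 1.77-fold by this probe set and 1.55-fold by another. Lss, the cyclase that forms lanosterol, was 1.41-fold and 1.62-fold higher by a pair of probe sets, and at least 1.63-fold higher by another that was at the floor in wildtype. Tm7sf2, a sterol reductase, read 77.1 in Cpdm and 57.3 in wildtype. No probe set of these 4 genes that exceeded the floor on both arrays went the other way.

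Sc5d and Hsd17b7 gave smaller or divided readings. Sc5d, a desaturase acting late in the pathway, was 1.53-fold higher with 336 in Cpdm and 219 in wildtype by its brightest probe set. It was 1.54-fold lower by another and 1.17-fold higher by the third. Hsd17b7, a sterol ketone reductase, had 4 probe sets with log2 ratios between -0.08 and 0.50. Ebp, the sterol isomerase, was the sterol gene furthest below 0, with 668 in Cpdm and 1207 in wildtype, or 1.81-fold lower. Ebp has a single probe set. Both Ebp and Nsdhl lie on the X chromosome, in an array pair that also differed in Xist.

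**Figure D2:**
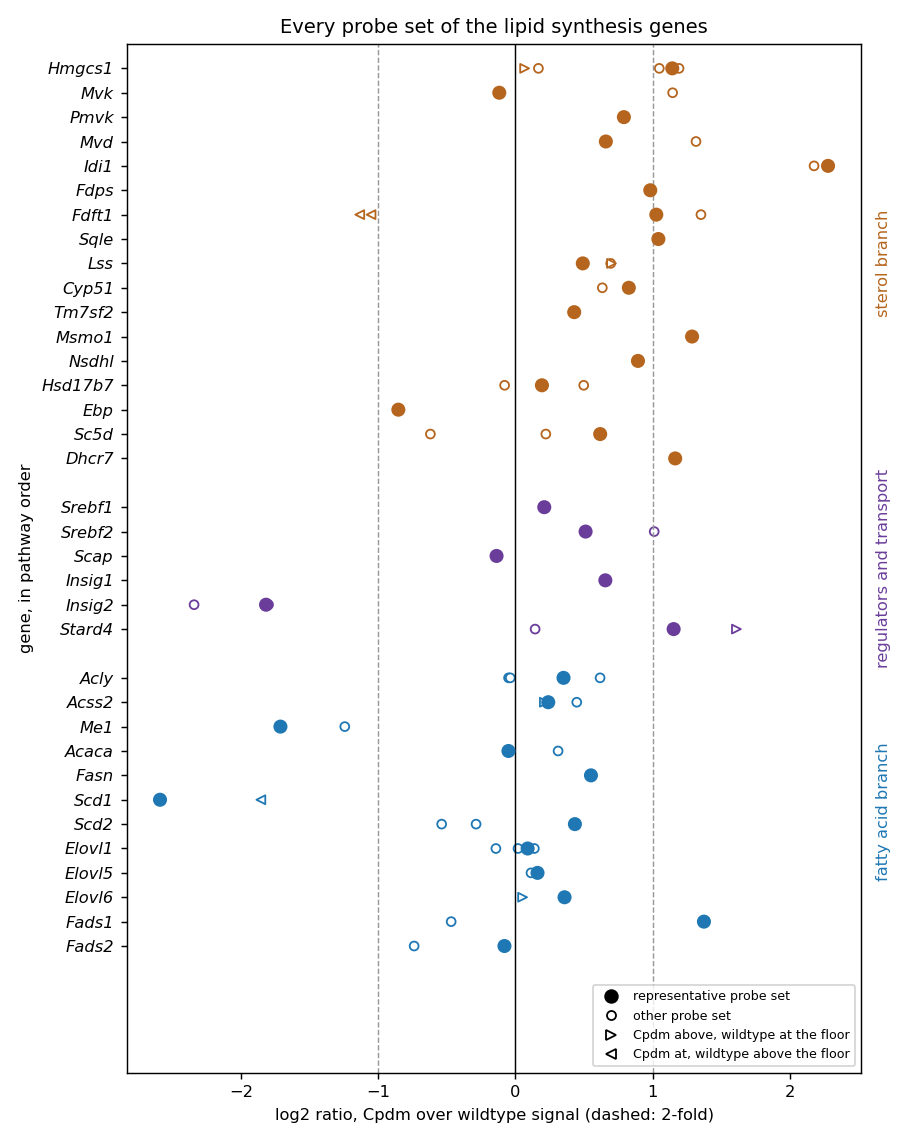
Log2 ratio of Cpdm over wildtype signal for every probe set of the 35 genes that was above the floor in at least 1 array, with large filled symbols for representative probe sets, open circles for other probe sets and triangles where 1 culture was at the floor, drawn at the bound. The dashed lines mark 2-fold. Idi1, Insig2, Me1 and Scd1 have all of several probe sets beyond the dashed line of 1 side, Scd1 with 1 of them drawn at its bound. Those of Fdft1 also all lie beyond a dashed line, but on both sides. Mvk, Fdft1, Hsd17b7, Sc5d, Acly, Acaca, Scd2, Elovl1 and Fads1 have probe sets on both sides of 0.

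Among the regulators, the INSIG genes differed in opposite directions. Insig2 read 260 in Cpdm and 916 in wildtype, or 3.53-fold lower. Its other probe sets read 202 in Cpdm and 703 in wildtype, and 140 in Cpdm and 711 in wildtype, or 3.48-fold and 5.07-fold lower. All 3 probe sets were bright in wildtype and clearly dimmer in Cpdm, and Insig2 ranked 255th of 14055 from the lowest ratio. Insig1, which in many cells is itself a target of the SREBP factors, read 396 in Cpdm and 252 in wildtype, or 1.58-fold higher, by its single probe set. The log2 ratios of Insig1 and Insig2 lay 2.47 apart.

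The genes of the transcription factors differed less. Srebf2 read 188 in Cpdm and 132 in wildtype, or 1.43-fold higher, and its dimmer probe set read 98.2 in Cpdm and 48.7 in wildtype, or 2.02-fold higher. Srebf1, with 1 probe set that covers its isoforms together, read 227 in Cpdm and 196 in wildtype, or 1.16-fold higher. Scap, the escort, read 131 in Cpdm and 144 in wildtype. The differences of Srebf1 and Scap are smaller than the robust probe-set SD of 0.32. These are transcript signals, and the cleavage that activates the proteins was not measured.

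Stard4, a sterol carrier of the cytosol, went with the sterol branch. It read 215 in Cpdm and 96.6 in wildtype, or 2.22-fold higher. A second probe set read 57.2 in Cpdm and was at the floor in wildtype, at least 3.06-fold higher, and the third read 76.2 in Cpdm and 69.0 in wildtype. Over the 5 regulators and Stard4 together, 1 gene was higher by at least 2-fold (Stard4, background 5.84%) and 1 was lower by as much (Insig2, background 5.98%). The median of these 6 genes was 0.36 on the log2 scale.

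The fatty acid branch differed less between the cultures by its median. Of 12 measured genes, 1 was at least 2-fold higher (8.33%, background 5.84%), 2 were at least 2-fold lower (16.7%, background 5.98%) and the other 9 differed by less than 2-fold. The higher gene was Fads1, whose dimmer probe set ran the other way. With the probe sets of a gene averaged, 0 fatty acid genes were at least 2-fold higher. Of the 12 genes, 8 had a log2 ratio above 0 (background 52.4%), and the median was 0.20. Of their 26 probe sets that exceeded the floor on both arrays, 1 was at least 2-fold higher (background 5.07%) and 3 were at least 2-fold lower (background 5.66%). The difference between the branch medians was 0.63 log2 units, sterol minus fatty acid, and 0.74 when taken over the probe sets that exceeded the floor on both arrays. Of the 17 sterol genes 14 lay above the fatty acid median, and of the 12 fatty acid genes 1, Fads1, lay above the sterol median. Among all measured genes, 63.7% lay at or below a log2 ratio of 0.20, 90.3% at or below 0.80 and 91.4% at or below 0.85. The share of fatty acid genes above the sterol median was thus near that of all measured genes. Genes of 1 pathway on 1 array pair are not replicates, so this difference carries no test.

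**Figure D3:**
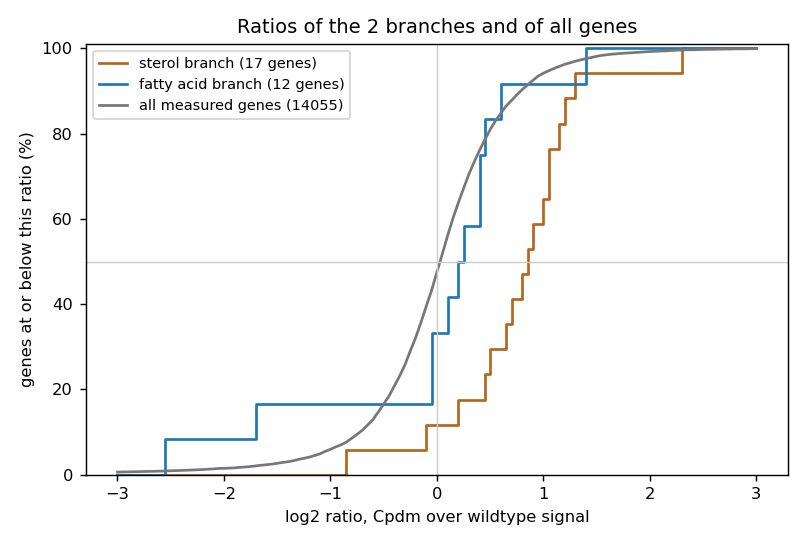
Share of genes at or below each log2 ratio of Cpdm over wildtype, for the 17 sterol genes (brown), the 12 fatty acid genes (blue) and all 14055 measured genes (grey). The sterol curve reaches 50% near a log2 ratio of 0.83 and the fatty acid curve near 0.20, against 0.03 for all measured genes; the fatty acid curve has a tail to the left made of Scd1 and Me1.

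Scd1 had the largest difference of any fatty acid gene and encodes the desaturase that makes monounsaturated fatty acids. It read 146 in Cpdm and 880 in wildtype, or 6.03-fold lower, at rank 122 of 14055 from the lowest ratio. Its other probe set read 13.5 in Cpdm, below the floor, and 66.9 in wildtype, at least 3.62-fold lower. Scd2, the close relative of Scd1 that many non-hepatic mouse tissues express, read 996 in Cpdm and 737 in wildtype by its brightest probe set. The dimmer Scd2 probe sets read 128 in Cpdm and 186 in wildtype, and 20.6 in Cpdm and 25.1 in wildtype. The log2 ratios of the representative probe sets of Scd2 and Scd1 lay 3.02 apart, and the Scd2 probe sets lay between 1.45-fold lower and 1.35-fold higher.

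Me1, the malic enzyme that supplies NADPH for fatty acid synthesis, was the other gene at least 2-fold lower. It read 213 in Cpdm and 699 in wildtype, or 3.28-fold lower, and 204 in Cpdm and 484 in wildtype, or 2.37-fold lower, by its other probe set. Fads1, the delta-5 desaturase of polyunsaturated fatty acids, was 2.59-fold higher with 774 in Cpdm and 298 in wildtype. A dimmer Fads1 probe set read 81.6 in Cpdm and 113 in wildtype, the opposite direction. Fads2, the delta-6 desaturase of the same chain, read 60.4 in Cpdm and 63.8 in wildtype, and 27.9 in Cpdm and 46.6 in wildtype. The log2 ratios of Fads1 and Fads2 lay 1.45 apart.

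The core enzymes of fatty acid synthesis were near equal or slightly higher. Fasn, the fatty acid synthase, read 136 in Cpdm and 93.2 in wildtype, or 1.46-fold higher. Acly, which splits citrate to cytosolic acetyl-CoA, read 682 in Cpdm and 535 in wildtype, and its 4 probe sets that exceeded the floor on both arrays had log2 ratios between -0.05 and 0.62. Acaca, the acetyl-CoA carboxylase, read 64.7 in Cpdm and 67.0 in wildtype, and 28.2 in Cpdm and 22.7 in wildtype by a dimmer probe set. Acss2, which activates acetate, read 57.8 in Cpdm and 48.9 in wildtype. The difference of Fasn is larger than the robust probe-set SD of 0.32, at a log2 ratio of 0.55, and so is that of Acly by its representative probe set, at 0.35. That of Acaca is smaller, at -0.05 by its representative probe set and 0.31 by the other. Acss2 lay at 0.24 by its representative probe set and at 0.45 by another.

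The elongases, which lengthen fatty acids, differed little. Elovl1 read 787 in Cpdm and 740 in wildtype, and its 4 probe sets had log2 ratios between -0.14 and 0.14. Elovl5 read 524 in Cpdm and 468 in wildtype. Elovl6, which extends palmitate, read 86.8 in Cpdm and 67.7 in wildtype. None of these reached 1.5-fold in any probe set.

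Probe sets of the same gene give the internal check that these arrays allow. Several probe sets exceeded the floor on both arrays in 21 genes, of which 13 had all of them on 1 side of 0 and 8 had them on both sides: Mvk, Hsd17b7, Sc5d, Acly, Acaca, Scd2, Elovl1 and Fads1. Of the 11 genes at least 2-fold apart by the representative probe set, Sqle, Msmo1, Dhcr7 and Scd1 had no second probe set that exceeded it on both arrays. Idi1, Insig2 and Me1 passed 2-fold in 1 direction by every one of several probe sets, as did Scd1 with 1 of its probe sets at the floor in Cpdm. Fdft1 counts among the 13 genes, although its dim probe sets at the floor in Cpdm ran the other way. The like share over all genes is not given here.

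Promoter sequences were set beside these values because many members differed in 1 direction. RefSeq windows (GRCm38.p6) of 250 bases before to 50 bases after the gene start were on hand for 29 of the 36 genes; Fdps, Fdft1, Sqle, Stard4, Scd1, Scd2 and Fads1 had none. Where a gene has several starts, the most upstream was used. Hmgcs1, Idi1 and Msmo1 are shown as sterol genes at least 2-fold higher, Insig1 and Insig2 as the regulators that differed in opposite directions, and Me1 as a fatty acid gene that was lower. Capitals mark TCACNCCAC, a sterol regulatory element motif, and CCAAT, the box bound by NF-Y, a usual partner of SREBP factors, on either strand; none of the marked matches overlap.
Hmgcs1, chr13:119690101-119690400, plus strand: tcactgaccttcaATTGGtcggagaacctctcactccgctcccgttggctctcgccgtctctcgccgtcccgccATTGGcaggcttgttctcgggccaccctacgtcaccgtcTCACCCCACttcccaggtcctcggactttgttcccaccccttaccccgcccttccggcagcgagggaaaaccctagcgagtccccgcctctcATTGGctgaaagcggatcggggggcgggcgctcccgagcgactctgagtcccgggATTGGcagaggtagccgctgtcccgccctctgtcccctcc
Idi1, chr13:8885356-8885655, plus strand: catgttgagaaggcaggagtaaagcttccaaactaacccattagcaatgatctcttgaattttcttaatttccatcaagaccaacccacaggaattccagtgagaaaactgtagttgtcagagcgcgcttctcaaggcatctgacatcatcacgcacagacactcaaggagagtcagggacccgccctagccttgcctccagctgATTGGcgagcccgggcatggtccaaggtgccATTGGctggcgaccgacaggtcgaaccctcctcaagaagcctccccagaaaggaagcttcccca
Msmo1, chr8:64733529-64733828, minus strand: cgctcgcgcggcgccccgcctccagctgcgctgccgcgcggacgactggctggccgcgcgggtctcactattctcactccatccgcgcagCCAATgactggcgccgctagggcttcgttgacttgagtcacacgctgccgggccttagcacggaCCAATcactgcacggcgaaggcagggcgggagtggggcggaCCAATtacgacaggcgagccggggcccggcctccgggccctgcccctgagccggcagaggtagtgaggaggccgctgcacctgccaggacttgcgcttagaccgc
Insig1, chr5:28071162-28071461, plus strand: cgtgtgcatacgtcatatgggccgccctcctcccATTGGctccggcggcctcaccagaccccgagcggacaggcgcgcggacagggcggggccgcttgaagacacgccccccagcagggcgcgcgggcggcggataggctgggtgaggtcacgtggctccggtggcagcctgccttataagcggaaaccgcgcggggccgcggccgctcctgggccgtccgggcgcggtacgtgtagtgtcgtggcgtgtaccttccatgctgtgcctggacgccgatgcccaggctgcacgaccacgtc
Insig2, chr1:121332540-121332839, minus strand: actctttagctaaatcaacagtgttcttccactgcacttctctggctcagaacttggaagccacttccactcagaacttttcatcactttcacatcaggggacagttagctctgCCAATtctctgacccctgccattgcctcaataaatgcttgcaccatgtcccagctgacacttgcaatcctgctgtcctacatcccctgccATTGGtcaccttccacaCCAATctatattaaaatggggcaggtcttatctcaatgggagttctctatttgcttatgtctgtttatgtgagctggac
Me1, chr9:86695865-86696164, minus strand: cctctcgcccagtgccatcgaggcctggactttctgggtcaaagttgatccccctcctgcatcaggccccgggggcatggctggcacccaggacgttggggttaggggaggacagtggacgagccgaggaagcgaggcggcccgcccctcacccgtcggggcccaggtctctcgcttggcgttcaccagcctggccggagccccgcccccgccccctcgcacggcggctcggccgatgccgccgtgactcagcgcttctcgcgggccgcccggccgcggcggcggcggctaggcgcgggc

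The Hmgcs1 window was the only member window with TCACNCCAC, as TCACCCCAC beginning 137 bases before the start. That motif is held by 1.16% of the 11283 measured genes with a window and by 1.24% of all 32851 windows. Among the 15 sterol windows 1 is that of Acat2, which has no probe set here. CCAAT was present in 13 of 15 sterol windows (86.7%), or 13 of 14 without Acat2, in 4 of 5 windows of regulators and in 5 of 9 fatty acid windows (55.6%). Among 11283 measured genes with a window it was present in 38.0%, and among all windows in 37.4%. The Hmgcs1 window holds 4 matches, that of Msmo1 and the Insig2 window 3 each, that of Idi1 2 and that of Insig1 1, and the Me1 window holds none. The GC box GGGCGG, on either strand, was present in 14 of 15 sterol windows (93.3%), or 13 of 14 without Acat2, and 5 of 9 fatty acid windows (55.6%), against 59.9% of measured genes and 35.7% of all windows. The E box CACGTG was present in 2 sterol windows, 2 regulator windows and 1 fatty acid window, against 9.56% of measured genes and 7.15% of all windows. Insig2 has 3 listed windows and Me1 has 2, so their counts may depend on the start used. The part of these motifs in the differences was not tested. A match says that these letters are there, not that a factor binds, and a missing match does not say that no factor binds.

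Other lipid genes were described from 7 further lists. Together these hold 96 measured entries, of which 2 were at least 2-fold higher (2.08%, background 5.84%) and 7 were at least 2-fold lower (7.29%, background 5.98%). The share of higher genes in these lists thus lay below that of all measured genes.

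In the list of sterol uptake, trafficking and storage, 1 of 12 measured genes was higher by at least 2-fold (background 5.84%) and 2 were lower by as much (background 5.98%). The list's median log2 ratio was 0.05. Vldlr, a lipoprotein receptor, read 43.2 in Cpdm and 772 in wildtype, or 17.9-fold lower. Another Vldlr probe set was 13.9-fold lower, and 4 more were at the floor in Cpdm. Npc1, the lysosomal cholesterol exporter, read 454 in Cpdm and 217 in wildtype, or 2.09-fold higher. Osbpl5, an oxysterol-binding protein relative, read 35.0 in Cpdm and 74.4 in wildtype. Lrp1 and Scarb1, other lipoprotein receptor genes of the list, had log2 ratios of 0.22 and 0.18, and Npc2 had -0.06.

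The list of SREBP processing and turnover had a median log2 ratio of -0.44. Of 13 measured genes, 1 had a ratio above 0 (background 52.4%), none was at least 2-fold higher (background 5.84%) and 2 were at least 2-fold lower (background 5.98%). The lower ones were coat genes of the vesicles that leave the endoplasmic reticulum with SCAP and many other cargoes. Sec23a read 573 in Cpdm and 1345 in wildtype, or 2.35-fold lower. Sec24d read 343 in Cpdm and 795 in wildtype, or 2.32-fold lower. Sar1a, the GTPase that starts this coat, read 775 in Cpdm and 1544 in wildtype, just under the 2-fold rule. Mbtps1 and Mbtps2, the proteases that cut SREBP, had log2 ratios of -0.69 and -0.08. Osteoblast markers were lower in the same array, with a median log2 ratio of -2.94, and their part in this list's values was not tested.

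The list of LXR factors, their targets and sterol efflux, where LXR is the oxysterol-sensing receptor that opposes cholesterol gain, held 11 measured genes with a median of 0.13 on the log2 scale. Cyp27a1, which makes an oxysterol, was the only one at least 2-fold higher (background 5.84%), with 247 in Cpdm and 115 in wildtype, or 2.14-fold. None was at least 2-fold lower (background 5.98%). The LXR gene Nr1h3 read 45.9 in Cpdm and 53.6 in wildtype, and the cholesterol exporter gene Abca1 read 1731 in Cpdm and 1158 in wildtype. Isoprenoid side branches, which leave the pathway at farnesyl diphosphate, had a median of 0.02 over 11 genes. None of these was at least 2-fold higher (background 5.84%) or lower (background 5.98%).

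In the lists on the fatty acid side of lipid metabolism, none of the measured genes was at least 2-fold higher (background 5.84%), and Mlxipl, G0s2 and Agpat3 were at least 2-fold lower (background 5.98%). Over 16 measured genes of further elongation, activation and supply the median log2 ratio was 0.07, and Mlxipl, a carbohydrate-responsive lipogenic factor, was 2.14-fold lower with 25.8 in Cpdm, near the floor, and 55.3 in wildtype. Over 16 genes of glyceride synthesis, storage and lipolysis the median was -0.26. G0s2, an inhibitor of lipolysis, was 2.25-fold lower there, and Agpat3 was 2.01-fold lower by 1 probe set but 2.11-fold higher by another. Over 17 genes of fatty acid oxidation the median was -0.07, with none at least 2-fold apart. Among 7 measured adipocyte markers, which share lipid genes with these lists, none was at least 2-fold higher (background 5.84%) or lower (background 5.98%). At these shares a list this short may hold none. The median log2 ratio of the adipocyte markers was -0.23. Their summed signal was 2217 in Cpdm and 2596 in wildtype, the adipocyte hormone gene Lep lay below the floor in both cultures, and Adipoq read 27.3 in Cpdm and was at the floor in wildtype.

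**Figure D4:**
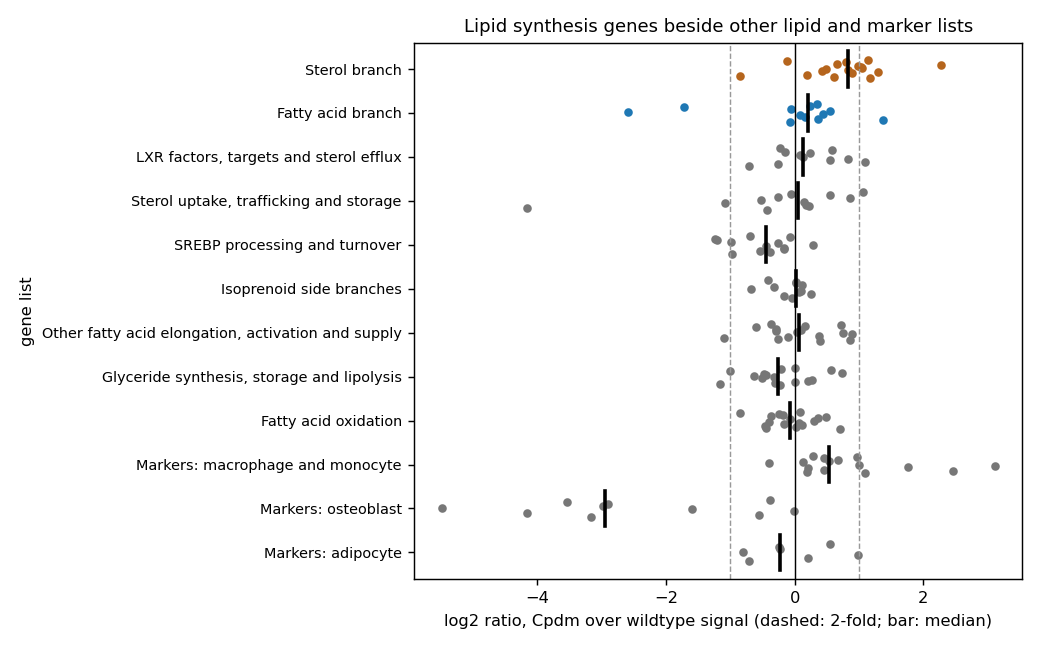
Log2 ratio of Cpdm over wildtype signal for each measured gene (points) of the sterol branch, the fatty acid branch, 7 further lipid lists and 3 marker lists, with a black bar at each list's median and dashed lines at 2-fold; genes at the floor in 1 culture are drawn at their bound. The sterol bar lies at 0.83, the bars of the 7 further lipid lists lie between -0.44 and 0.13, and the bars of the macrophage and osteoblast markers lie at 0.54 and -2.94.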

How the data were processed

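Values deposited by the authors are signal intensities on a linear scale, in 1 column for each array; the submitters' processing notes name GCOS 1.4 with MAS5. The trimmed mean, without the outer 2% of probe sets at either end, was 100 on each array. The table holds no detection call or error per value, and the sources used here give no genome build. Of 45037 probe sets that are not controls, 34945 name exactly 1 gene in the platform annotation, 932 name several and 9160 are not listed. Symbols of all 35 genes matched RefSeq through the Entrez identifier. Ratios were taken without further scaling, using pandas 2.3.3 and numpy 2.4.6 under Python 3.11.15.

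Each array was floored at its 40th percentile, a gene counts as measured if its representative probe set is above the floor in at least 1 array, and genes were counted at 2-fold. All 35 genes are named, though the text does not give every probe set of each. Of the other lists, those at least 2-fold apart are named, at most 4 each, and a few more were named after their values were seen. The members and lists were chosen with earlier results of these data known. The comparison functions were tested on simulated data. The number of arrays limits the precision.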

Additional observations from a re-analysis of the deposited data

How the results depend on the processing

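Besides the choices used above, 10 others were tried: floors at the 20th and 60th percentile or none, averaging the probe sets of a gene, leaving out probe sets designed to match several transcripts where the gene has another probe set, 3 other scalings, and rules of 1.5-fold and 3-fold. The median log2 ratio stayed between 0.73 and 0.86 for the sterol branch, between 0.13 and 0.22 for the fatty acid branch and between 0.35 and 0.43 for the regulators with Stard4, and the difference between branches between 0.60 and 0.66. With probe sets averaged, 4 sterol genes were at least 2-fold higher, 0 fatty acid genes and 0 regulators; Hmgcs1, Fdft1 and Fads1 then had log2 ratios of 0.72, 0.05 and 0.45, and Sc5d and Scd2 0.07 and -0.13. Without probe sets that match several transcripts, Mvk was 1.15 and Msmo1 had no value, as its other probe set lies below the floor, so the 6 sterol genes at least 2-fold higher then included Mvk and not Msmo1. At 1.5-fold, 12 sterol genes were higher and 1 was lower, 2 regulators were higher, and the 7 further lists had 10 higher and 15 lower. At 3-fold, 1 sterol gene, 0 fatty acid genes, 0 regulators and 0 genes of the further lists were higher, and 1 gene of those lists was lower. Those lists had 4 higher genes with the 20th percentile floor, 5 with no floor and 4 without probe sets that match several transcripts, and 4 lower genes with the 60th percentile floor. Over all measured genes, 821 were at least 2-fold higher and 840 at least 2-fold lower, against 1265 and 1397 with the 20th percentile floor, 1687 and 1849 with no floor, 2210 and 1895 at 1.5-fold, and 217 and 342 at 3-fold. No gene of the pathway at least 2-fold apart changed sign under the choices that gave it a value. The floor does not touch the 35 representative probe sets, and median and spike-in scaling shift all genes by 1 constant. Those choices are therefore no check of single genes or of the difference between branches, and fold rules do not enter a median. That difference was 0.60 with probe sets averaged and 0.61 with quantile scaling, which gives both arrays 1 distribution. It was 0.66 without probe sets that match several transcripts. Averaging probe sets moved 9 genes by over 0.32 log2 units, and leaving out probe sets that match several transcripts moved 2, Mvk and Me1. No paired analysis was possible because each genotype has 1 array. Signals near the floor and single probe sets limit what can be said of dim genes such as Mvk and Acss2.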
